A study of Macaca fascicularis with 16 samples.

Results

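The suprarenal aorta, the first stretch of abdominal aorta above the kidney arteries, was compared with the descending thoracic aorta on the other side of the diaphragm. The labels of the libraries gave the regions, so the comparison holds the 4 suprarenal and the 4 descending libraries, 8 of the 16 in the series, and it was read across all expressed genes. Every library came from aorta of normal young cynomolgus monkeys (Macaca fascicularis) at baseline, and the other 8 libraries came from the ascending and the infrarenal aorta. Strain, sex and exact age are not given in the labels used here. The title of the series names NOTCH3 and elastic fibres of the infrarenal aorta, and the regional profiling was set beside that question. The labels do not say whether the 4 libraries of a region came from 4 animals, so a p-value here speaks of the spread among libraries, part of which may be technical.

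The aorta keeps a positional record of its embryonic origin. Smooth muscle of the ascending aorta derives largely from neural crest and second heart field, that of the descending and abdominal aorta from paraxial and splanchnic mesoderm, and HOX genes, which encode homeodomain transcription factors, are switched on in order along the body axis, so that genes late in each cluster are used furthest toward the tail. The wall becomes more muscular and less elastic toward the abdomen: the thoracic aorta stores pulse energy in stacked elastin sheets, and NOTCH3 is a receptor of arterial smooth muscle that takes part in its maturation.

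No gene passed the test between the suprarenal and the descending aorta. The quasi-likelihood test of edgeR called 0 of 15926 genes (0%) at an adjusted p under 0.05, with a lowest adjusted p of 1.00, and DESeq2 and limma voom also called 0. At an unadjusted p under 0.05 edgeR had 264 genes (1.66%), of which 164 (1.03%) were higher and 100 (0.628%) lower in the suprarenal aorta, while DESeq2 had 364 and limma voom 210. Without any difference, evenly spread p-values would put a share of 0.05 of the genes under this threshold. The edgeR share was below that, so such a p does not by itself mark a gene as different. The lowest adjusted p of any of the 27 other settings was 0.282, from DESeq2, and the highest of these lowest values was 1. The differences below are therefore given as values, with intervals, and none of them is a call.

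The interval around each difference shows what 4 libraries against 4 could measure. For 9518 genes (59.8%) the 95% interval lay wholly within 1 log2 unit of no difference, a change of 2-fold in either direction, and for 14184 (89.1%) it lay within 2 log2 units. Library totals ran from 15953945 to 17750133 counts in the descending and from 14649689 to 21407514 in the suprarenal libraries. Of the variation over the 8 libraries, summed over genes, region took 10.9%, and the number that the labels give each library took 57.7%. Their shares of the degrees of freedom were 14.3% and 42.9%. By gene the median shares were 7.49% and 52.6%. Shares by gene are skewed, so these medians are not set against the degrees of freedom. Same-numbered descending and suprarenal libraries deviated from their region's mean together, with correlations across genes of 0.26 to 0.40. With the number as a block in the fit edgeR still called 0 genes, and 365 had an unadjusted p under 0.05.

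One suprarenal library stood apart. On the first principal component of the 8 libraries, which held 37.6% of the variance, suprarenal 3 lay at 100.2 and the other 7 between -34.2 and 7.91. Its markers of endothelial cells, of lymphatic vessels and of lymphocytes were far above those of the other 3 suprarenal libraries, as described further on, and values that turn or move strongly without it are given both ways.

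**Figure D1:**
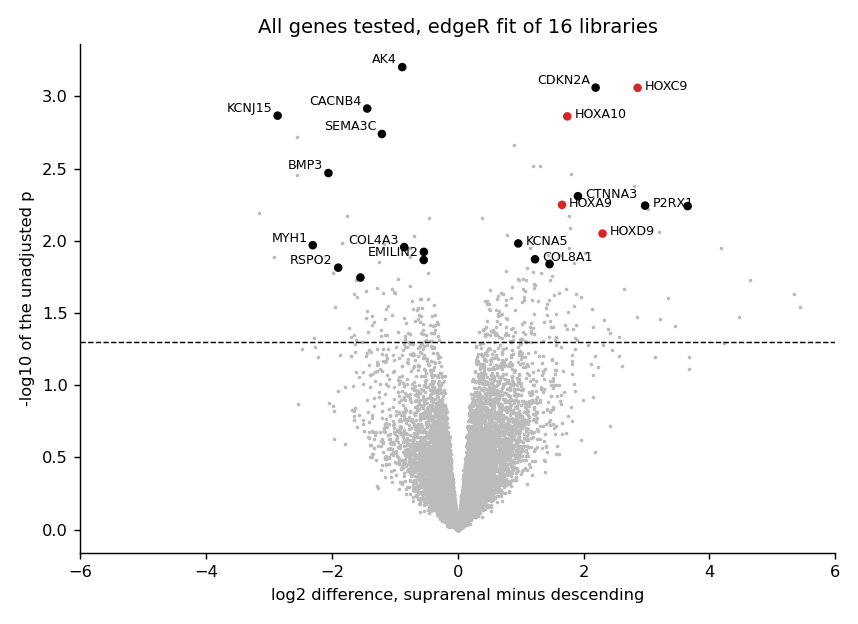
Each point is 1 of the 15926 genes tested, with the log2 difference of suprarenal minus descending aorta on the x axis and -log10 of the unadjusted edgeR p on the y axis. Only the named genes with the smallest unadjusted p are marked, HOX genes in red and others in black. The dashed line marks an unadjusted p of 0.05. Differences are found on both sides, and none passed the adjusted threshold. The HOX genes marked all lie on the suprarenal side, while HOXA4, on the descending side (edgeR unadjusted p = 0.0206), just missed the limit for marking.

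HOX genes gave values that followed their place in the clusters. Paralog groups are the numbered rows of matching genes in the HOXA, HOXB, HOXC and HOXD clusters, and 28 HOX genes were tested. Of the 7 tested genes in group 9 and above, all 7 were higher in the suprarenal aorta, with a median log2 difference of 1.74 when HOXD10 is set at its bound. In groups 6 to 8, 7 of 8 were higher (median 0.61). In groups 4 and 5, 3 of 6 were higher (median 0.13), and in groups 1 to 3, 3 of 7 (median -0.02). Over all genes tested 51.7% were higher, with a median of 0.01. None of the HOX genes passed the test. Without suprarenal 3, the 15 tested posterior HOX genes (group 6 and above) had 13 higher, 1 lower and a median of 0.97, against 14 higher and 1.16 with it.

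HOXC9 and HOXA10 had no overlap between the regions. HOXC9 levels in CPM, the count relative to the library total scaled by TMM factors, were 0.672, 0.542, 0.425 and 0.111 in descending libraries 1 to 4 and 1.18, 8.13, 2.54 and 0.886 in suprarenal libraries 1 to 4. All 4 suprarenal values lay above all 4 descending ones, with suprarenal 2 far above the rest, on a total of only 29 counts in the descending libraries. The log2 difference was 2.86 (SE 0.70, 95% interval 1.38 to 4.34, edgeR unadjusted p = 0.000872, adjusted p = 1.00), and 1.80 without suprarenal 2. HOXA10 gave 2.26, 1.26, 2.55 and 1.39 CPM in the descending and 3.15, 13.3, 5.71 and 2.66 CPM in the suprarenal libraries, again without overlap. Its log2 difference was 1.74 (SE 0.45, edgeR unadjusted p = 0.00138, adjusted p = 1.00), and 1.04 without suprarenal 2. Of all genes tested, 136 (0.854%) had 4 suprarenal libraries above 4 descending ones, and 150 (0.942%) had them below. Together these were 286 genes (1.80%). Random placing of the region labels gives no overlap in either direction with a probability of 0.0286, which is a larger share.

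HOXA9 was higher in each of the 4 same-numbered pairs but overlapped between regions. Its CPM were 2.50, 5.06, 4.31 and 2.16 in the descending and 5.57, 25.8, 9.01 and 3.78 in the suprarenal libraries, and its log2 difference of 1.66 (SE 0.52) became 0.80 without suprarenal 2. HOXC10 was also higher in all 4 pairs, by 0.67 (SE 0.37) on the log2 scale, and by 0.42 without suprarenal 3. Pairs that all pointed the same way were found for 943 genes upward (5.92%) and 966 downward (6.07%). These shares are close to what 4 tosses of a coin would give in each direction.

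HOXD9, HOXA11 and HOXD10 rested on few counts or on suprarenal 3. HOXD9 had 1.83, 1.02, 0.788 and 0.222 CPM in the descending and 0.990, 3.68, 12.5 and 1.95 CPM in the suprarenal libraries, and its log2 difference of 2.30 (SE 0.77) was 1.20 without suprarenal 3. HOXA11 had 6 counts in the 4 descending and 43 in the 4 suprarenal libraries (log2 difference 2.64, SE 1.03). HOXD10 had 0 counts in every descending library and in suprarenal 1, 2 and 4, and 0.571 CPM (9 counts) in suprarenal 3, so no fold is given for it. In the infrarenal aorta HOXD10 reached 10.1 ± 6.44 CPM (SD, n = 4).

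The middle of the clusters showed smaller differences. HOXA7 CPM were 36.4, 23.0, 20.6 and 5.65 in the descending and 44.4, 48.0, 34.9 and 33.3 in the suprarenal libraries, higher in all 4 pairs with overlap (log2 difference 0.91, 95% interval -0.12 to 1.93, and 0.59 without descending 4). HOXB7, HOXB8 and HOXC6 were likewise higher in all 4 pairs, by 0.63, 1.54 and 0.58 on the log2 scale (HOXC6 0.28 without descending 4). HOXB6, the exception in groups 6 to 8, differed by -0.06 (95% interval -0.61 to 0.48).

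At the front of the clusters HOXA4 stood on the other side. Its CPM were 17.4, 19.1, 16.2 and 25 in the descending and 12.4, 8.61, 11.9 and 13 in the suprarenal libraries, without overlap (log2 difference -0.76, SE 0.29, edgeR unadjusted p = 0.0206, adjusted p = 1.00). HOXC4, of the same paralog group in another cluster, was higher in all 4 pairs, at 11.2, 7.47, 4.85 and 4.32 CPM in the descending and 14.4, 18.9, 8.25 and 9.21 CPM in the suprarenal libraries (log2 difference 0.86, SE 0.34). HOXB2, HOXB3 and HOXB4 differed by 0.09, -0.02 and -0.08, each with an interval within 1 log2 unit. The MEIS, PBX and related cofactors, which bind DNA with HOX proteins, had 4 of 8 tested members higher and a median of -0.01.

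**Figure D2:**
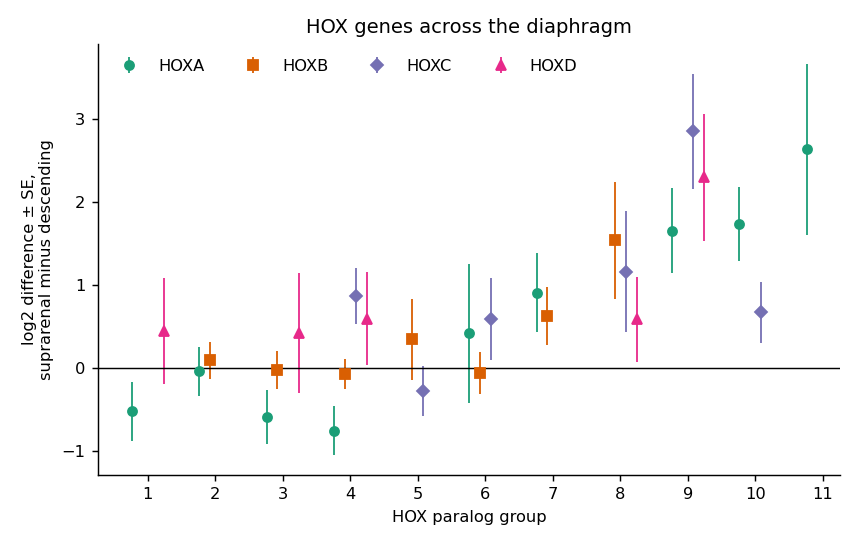
The x axis gives the HOX paralog group and the y axis the log2 difference of suprarenal minus descending aorta, with bars of 1 SE from the edgeR fit; symbols mark the 4 clusters, and HOXD10, with 0 counts in the descending libraries, is left out. Values sit around 0 in groups 1 to 5 and above 0 in group 9 and higher, where HOXC9 reaches 2.86.

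Among regulators of heart field, limb and crest derivatives, 17 of 30 tested were higher and the list's median was 0.05 (13 of 30 and -0.03 without suprarenal 3). PRRX1, a homeobox factor of limb and vascular mesenchyme, had 218, 208, 224 and 281 CPM in the descending and 139, 111, 193 and 198 CPM in the suprarenal libraries. No suprarenal value reached the lowest descending one (log2 difference -0.54, SE 0.19, interval -0.94 to -0.14). NR2F1, an orphan nuclear receptor, was higher in all 4 pairs at 8.68, 6.14, 10.7 and 7.09 against 8.78, 24.4, 44.6 and 11.8 CPM (log2 difference 1.46, and 0.88 without suprarenal 3). ISL1, a marker of the second heart field, was at 4 counts in all descending and 55 in all suprarenal libraries, most of them in suprarenal 3 (2.35 CPM, the other 3 between 0.247 and 0.430).

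NOTCH3 was higher in all 4 same-numbered pairs. Its CPM were 235.5, 108.3, 94.2 and 128.4 in descending libraries 1 to 4 (mean 142 ± 64.2, SD) and 255.6, 247.5, 177.1 and 182.2 in suprarenal libraries 1 to 4 (mean 216 ± 41.7). Descending 1 lay above suprarenal 3 and 4, so the regions overlapped. The log2 difference was 0.61 (SE 0.25, 95% interval 0.07 to 1.15, edgeR unadjusted p = 0.0303, adjusted p = 1.00), and 0.67 with the replicate block (unadjusted p = 0.00357, adjusted p = 1.00). Leaving out single libraries gave 0.45 (without descending 3) to 0.97 (without descending 1). An exact two-sided permutation test over all 70 arrangements of the region labels gave p = 0.0857 (0.257 adjusted over NOTCH3, ELN and FBN1), where the smallest p possible was 0.0286. The level was 56.3 ± 12.2 CPM in the ascending and 458 ± 49.6 CPM in the infrarenal aorta (SD, n = 4 each), so both regions next to the diaphragm lay between those ends.

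ELN, which encodes elastin, was lower in the suprarenal library of each pair. Its CPM were 349, 635, 423 and 212 in the descending and 297, 388, 168 and 189 in the suprarenal libraries, with wide overlap. The log2 difference of -0.64 had a 95% interval of -1.78 to 0.51 (exact permutation p = 0.171, adjusted 0.257) and was -0.33 without descending 2. FBN1, which encodes the microfibril protein fibrillin 1, had 816, 662, 617 and 596 CPM in the descending and 644, 446, 462 and 701 CPM in the suprarenal libraries. Its log2 difference of -0.26 (95% interval -0.73 to 0.22, exact permutation p = 0.257, adjusted 0.257) did not pass either test.

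Of 25 elastic fibre genes tested 18 were lower, with a median of -0.08 (14 and -0.04 without suprarenal 3). EMILIN2, a glycoprotein of elastic fibres and vessel matrix, was the single member under an unadjusted p of 0.05. Its CPM were 176, 152, 216 and 151 in the descending and 125, 103, 120 and 129 in the suprarenal libraries, a difference of -0.54 (SE 0.19, interval -0.95 to -0.13) without overlap. The Notch pathway genes other than NOTCH3 varied with suprarenal 3: 18 of 28 tested members were higher with a median of 0.22, and 11 of 28 with a median of -0.06 when that library was left out.

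**Figure D3:**
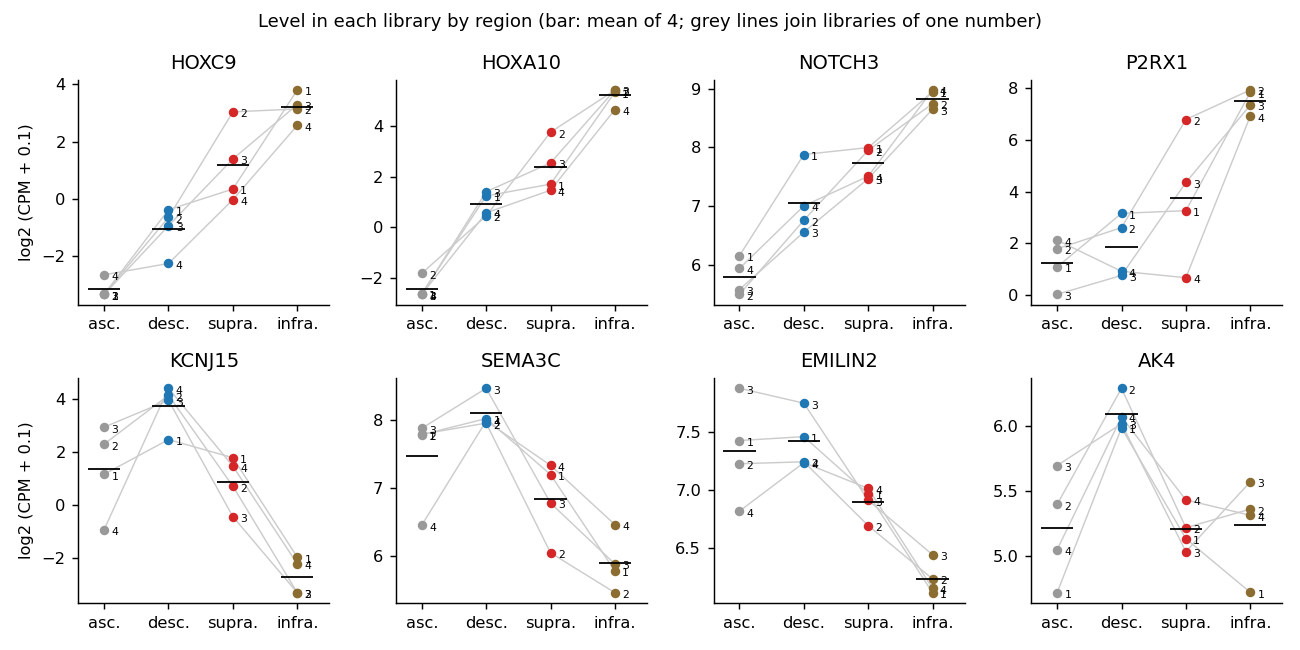
Each panel shows a gene in the 16 libraries, with the regions from ascending to infrarenal on the x axis and log2 of CPM plus 0.1 on the y axis; digits are the numbers in the labels, grey lines join libraries of the same number, and black bars are means of 4. HOXC9, HOXA10, KCNJ15, SEMA3C, EMILIN2 and AK4 do not overlap between descending and suprarenal, whereas NOTCH3 and P2RX1 do.

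Matrix genes outside the elastic fibre gave single members on both sides. COL8A1, a short-chain collagen of the vessel wall, had 42.1, 64.9, 63.3 and 50.4 CPM in the descending and 97.2, 248, 122 and 50.4 CPM in the suprarenal libraries (log2 difference 1.23, and 0.70 without suprarenal 2). COL4A3, a basement membrane collagen chain, was lower in all 4 pairs at 63.1, 84.7, 82.8 and 86.5 against 52.9, 24.4, 27.2 and 71.3 CPM (log2 difference -0.85, SE 0.30). LAMA5, a laminin chain, differed by 0.43 (SE 0.17). By list, 10 of 18 interstitial collagens, 6 of 20 basement membrane genes and 6 of 18 proteoglycan genes were higher, with medians of 0.02, -0.17 and -0.14. Without suprarenal 3 the counts were 7, 11 and 8, and the medians -0.07, 0.02 and -0.25.

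Smooth muscle contractile genes, which define the tissue, were all detected: 33 of 33 were tested, 17 were higher and 16 lower, and the median was 0.00. No member had an unadjusted p under 0.05. Without suprarenal 3 the count became 28 of 33 higher with a median of 0.15.

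Ligands that signal between cells of the wall included several of the larger differences. BMP3, an atypical member of the bone morphogenetic protein family, had 24.7, 37.8, 55.1 and 15.7 CPM in the descending and 14.7, 5.12, 7.80 and 4.49 CPM in the suprarenal libraries. The highest suprarenal value lay just below the lowest descending one, and the log2 difference was -2.06 (SE 0.60, interval -3.32 to -0.79, edgeR unadjusted p = 0.0034, adjusted p = 1.00). RSPO2, a secreted amplifier of WNT signalling, was at 9.84, 10.2, 34.8 and 14.5 against 5.63, 2.68, 4.0 and 6.26 CPM, also without overlap (log2 difference -1.90, SE 0.70). WNT5A, a ligand of the non-canonical WNT pathway, was lower in all 4 pairs (log2 difference -1.11, SE 0.46), while the WNT co-receptor LRP5 had 61.6, 63.5, 64.2 and 62.6 against 66.6, 105, 99.0 and 65.9 CPM (log2 difference 0.42, SE 0.19).

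SEMA3C, a secreted guidance cue with a known part in outflow tract development, had 260, 248, 354 and 254 CPM in the descending and 147, 66.0, 110 and 161 CPM in the suprarenal libraries. Every suprarenal library was below every descending one (log2 difference -1.21, SE 0.32, interval -1.89 to -0.52, edgeR unadjusted p = 0.00182, adjusted p = 1.00). UNC5D, a netrin receptor, also had no overlap, at 2.11 to 6.23 CPM in the descending and 0.0478 to 1.79 CPM in the suprarenal libraries. CTNNA3, an alpha catenin of muscle cell junctions, lay the other way with a log2 difference of 1.91 (SE 0.58), and 1.02 without suprarenal 3. By list, 30 of 45 TGF-beta and BMP genes were lower (median -0.08), and 33 of 45 without suprarenal 3 (median -0.21). WNT genes had 23 of 41 higher (median 0.04), but 27 of 41 lower without suprarenal 3 (median -0.23). Adhesion and guidance genes had 36 of 64 lower (median -0.06), and 40 of 64 without that library (median -0.08).

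Receptors and channels that set vessel tone differed singly. P2RX1, the ATP-gated channel that contracts smooth muscle, had 8.80, 5.96, 1.58 and 1.77 CPM in the descending and 9.46, 111, 20.3 and 1.48 CPM in the suprarenal libraries. Suprarenal 2 lay far above the others and suprarenal 4 below all descending libraries, and the log2 difference of 2.98 (SE 0.93) was 1.20 without suprarenal 2. CHRM2, a muscarinic acetylcholine receptor, was lower in all 4 pairs, at 20.6, 34.1, 61.0 and 15.6 against 16.5, 9.76, 14.3 and 4.37 CPM (log2 difference -1.55, SE 0.58).

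GUCY1B1, a subunit of the nitric oxide receptor, showed a small difference, with little spread among the suprarenal libraries but a wider one among the descending ones. It had 54.0, 43.5, 34.5 and 63.2 CPM in the descending and 69.8, 71.2, 64.2 and 70.3 CPM in the suprarenal libraries (log2 difference 0.50, SE 0.21). The highest descending value lay just below the lowest suprarenal one. Of the potassium channels, KCNA5 was higher in all 4 pairs by 0.96 (SE 0.33) on the log2 scale. KCNJ15, an inward rectifier, was lower in all 4 pairs, at 5.44, 17.6, 15.4 and 21.1 against 3.34, 1.53, 0.634 and 2.66 CPM with no overlap (log2 difference -2.86, SE 0.73, edgeR unadjusted p = 0.00136, adjusted p = 1.00).

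Calcium channel subunits lay on both sides. CACNB4, a beta subunit, had 17.6, 29.4, 27.4 and 26.5 CPM in the descending and 14.2, 8.23, 5.77 and 8.98 CPM in the suprarenal libraries, with no overlap (log2 difference -1.44, SE 0.36). CACNA2D3 differed by -1.45 (SE 0.57) and the T-type channel CACNA1H by 1.21 (SE 0.47), or 0.77 without suprarenal 3. Among all muscle ion channel genes 27 of 51 were higher, with a median of 0.03, and among vasoactive receptors and their effectors 27 of 45, with a median of 0.13. Without suprarenal 3 these were 23 of 51 (median -0.13) and 17 of 45 (median -0.15). KCNJ15, CACNB4 and CDKN2A were named after their values were seen, since they were among the 5 genes with the smallest unadjusted p. Other genes named from the lists, apart from the HOX genes, NOTCH3, ELN and FBN1, were also picked by p in these data. Each had one of the smallest unadjusted p in its list, so small p and lack of overlap follow in part from that choice. CDKN2A, a cell cycle inhibitor, had 11 counts in the 4 descending and 53 in the 4 suprarenal libraries.

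Energy metabolism included the gene with the smallest p. AK4, a mitochondrial adenylate kinase, had 63.2, 78.0, 64.6 and 67.0 CPM in the descending and 35.0, 37.1, 32.7 and 43.0 CPM in the suprarenal libraries. The regions were well apart and the spread within each was small (log2 difference -0.88, SE 0.21, interval -1.32 to -0.44, edgeR unadjusted p = 0.000627, adjusted p = 1.00). Of 42 nuclear genes of oxidative phosphorylation 33 were lower, with a median of -0.08, and 3 of these (NDUFA4, NDUFS1 and SDHC) had an unadjusted p under 0.05, with log2 differences of -0.59, -0.60 and -0.52 (SDHC -0.30 without descending 3). The 45 ribosomal protein genes had 42 members higher, by a median of only 0.17, and no member with an unadjusted p under 0.05.

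The step across the diaphragm was then set against its neighbours. For each gene the difference between suprarenal and descending aorta was compared with the mean of the steps from ascending to descending and from suprarenal to infrarenal. edgeR called 0 of 15926 genes (0%), and 217 (1.36%) had an unadjusted p under 0.05, against 301 by DESeq2 and 164 by limma voom, which also called 0. Here too the edgeR share was below the 0.05 that evenly spread p-values would give. AK4 was again first (step difference -1.33, edgeR unadjusted p = 0.000932, adjusted p = 1.00): its level was 38.2 ± 11.1 CPM in the ascending, 68.2 ± 6.72 in the descending, 37.0 ± 4.44 in the suprarenal and 38.6 ± 8.85 in the infrarenal aorta (SD, n = 4 each), so the descending aorta alone was high.

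The next genes by this test turned their direction at the diaphragm. CDH24, a cadherin, and ZNF684, a zinc finger gene, were lower in the descending than in the suprarenal aorta, at 4.26 ± 0.722 against 6.07 ± 0.851 CPM and 2.70 ± 0.506 against 5.02 ± 0.758 CPM (SD, n = 4 each). ZNF684 had no overlap between these regions, and its ascending mean of 3.93 and infrarenal mean of 4.16 CPM lay between them, while CDH24 was at 6.89 and 3.80 CPM at the ends. SLIT3, a guidance ligand of the vessel wall, ran from 93.9 ± 14.4 CPM in the ascending to 232 ± 35.4 in the descending, 194 ± 49.3 in the suprarenal and 308 ± 99.7 in the infrarenal aorta, so that its small step of -0.26 across the diaphragm lay between steps upward.

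Genes that separate the ends of the aorta were followed across the diaphragm. The infrarenal and ascending libraries are none of the 8 compared here, although all 16 share the fit, and edgeR called 228 genes higher (1.43%) and 328 lower (2.06%) at the infrarenal end at an adjusted p under 0.05. Of the 228, 189 (82.9%) were higher in the suprarenal than in the descending aorta, with a median log2 difference of 0.34. Of the 328, 281 (85.7%) were lower, with a median of -0.31, where 48.3% of all genes were lower. All 4 same-numbered pairs pointed upward for 59 of the 228 and downward for 0, and downward for 88 of the 328 and upward for 9.

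By library, these genes placed the suprarenal samples apart to different degrees. The mean centred log2 CPM of the 228 genes was 0.02, -0.18, -0.25 and -0.41 in descending libraries 1 to 4 and -0.11, 0.59, 0.27 and 0.06 in suprarenal libraries 1 to 4, so suprarenal 1 lay within the descending range. For the 328 genes it was 0.25, 0.40, 0.44 and 0.45 against 0.22, -0.27, -0.22 and 0.08, without overlap, and again suprarenal 1 lay closest to the descending libraries. The means were -1.16 ± 0.19 in the ascending and 1.16 ± 0.14 in the infrarenal aorta for the 228 genes (SD, n = 4 each), so the difference across the diaphragm was small beside the range of the whole vessel. Without suprarenal 1 the number of genes with an unadjusted edgeR p under 0.05 across the diaphragm was 521, and 0 were called.

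This pattern depended on which libraries were kept, at the ends and in the suprarenal aorta. Without infrarenal 1, whose TMM factor of 0.736 was the lowest of the 16, edgeR called 441 genes higher and 560 lower at the infrarenal end, and 67.8% and 70.9% of them pointed the same way across the diaphragm. Without infrarenal 1 and ascending 4 together the shares were 72.0% of 572 genes, against 52.4% of all genes, and 78.2% of 616. Leaving out suprarenal 3 alone, a library of the comparison itself, gave 77.2% of 268 and 83.8% of 400. Without infrarenal 1, ascending 4 and suprarenal 3 together, the shares were 45.3% of 1134 genes, below the 51.2% over all genes, and 66.0% of 965. So the share pointing upward no longer exceeded that of all genes when these 3 libraries were left out. Over the same 1134 genes all 4 same-numbered pairs pointed upward for 112 (9.88%) and downward for 10 (0.882%). These pair counts include suprarenal 3, so they do not show what holds without it.

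Read the other way, the genes with an unadjusted p under 0.05 across the diaphragm lay mostly on the same side at the ends. Of the 164 higher in the suprarenal aorta 121 (73.8%) were also higher in the infrarenal than in the ascending aorta, against 56.5% of all genes, with 42 called higher and 2 called lower. Of the 100 lower, 86 were lower at the infrarenal end, against 43.5% of all genes, with 43 called lower and 0 called higher. Among all 15926 genes 1.43% were called higher and 2.06% lower there. HOXA10, P2RX1, COL8A1 and CTNNA3 were among those called higher there, and COL4A3, BMP3, RSPO2, CHRM2, SEMA3C, KCNJ15 and CACNB4 among those called lower, whereas AK4 differed between the ends by 0.01 on the log2 scale.

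**Figure D4:**
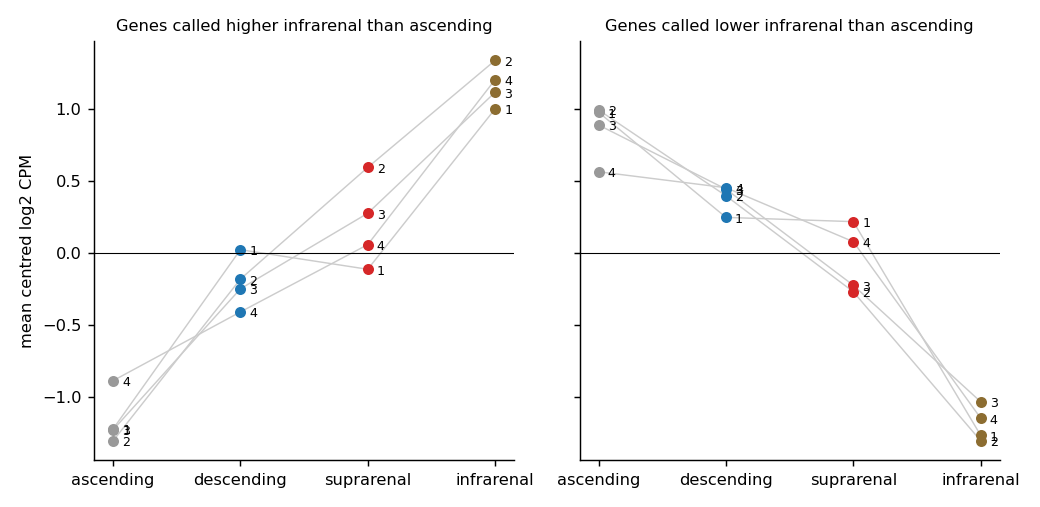
The y axis is the mean centred log2 CPM over the 228 genes called higher (left) and the 328 called lower (right) in the infrarenal than in the ascending aorta, for each library by region; digits are the numbers in the labels and grey lines join libraries of the same number. The ends are separated because they chose the genes; the descending and suprarenal libraries lie between them, overlap on the left and do not overlap on the right.

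Markers of the other cell types of the wall and its surroundings varied mostly between libraries. In such bulk samples fewer cells of a type and less RNA per cell cannot be told apart. The summed level of the endothelial markers was 1469 to 1970 CPM in the descending libraries and 1121, 1592, 5801 and 1378 CPM in suprarenal libraries 1 to 4. Only suprarenal 3 lay outside the descending range on the high side, yet 22 of 23 tested markers were higher on average, with a median of 0.90. Without that library 2 of 23 were higher and the median was -0.31.

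Lymphatic and lymphocyte markers followed the same library. Lymphatic endothelial markers had 6 of 7 members higher and a median of 1.85, against 0 of 7 and -0.62 without suprarenal 3. PROX1, the factor that specifies lymphatic endothelium, had 0.241 to 0.667 CPM in the descending libraries and 0.186, 0.383, 8.76 and 0.354 CPM in the suprarenal ones, and its log2 difference of 2.56 was -0.36 without suprarenal 3. Lymphocyte markers had 10 of 12 higher with a median of 0.40, against 2 of 12 and -0.40 without that library. ESAM, an endothelial adhesion molecule, was higher in all 4 pairs at 58.6, 58.4, 76.5 and 70.4 against 60.5, 212, 261 and 81.6 CPM, and its log2 difference of 1.22 was 0.84 without suprarenal 3. BMP5, another ligand of the BMP family, had 5.52 CPM in suprarenal 3 and 0.059 to 0.574 CPM in the other suprarenal libraries, and its difference of 3.21 was 0.83 without suprarenal 3.

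White fat markers, from tissue that clings to the outside of the aorta, had a summed level of 7106, 1948, 2633 and 629 CPM in the descending and 1308, 355, 4556 and 1418 CPM in the suprarenal libraries. The ranges overlapped widely, with 18 of 20 tested markers lower on average in the suprarenal aorta and a median of -0.86. The median was 0.16 without descending 1 and -1.54 without suprarenal 3. Fibroblast markers had 12 of 15 lower with a median of -0.10, which was 0.05 without suprarenal 1 and -0.55 without suprarenal 3. The part of these markers in the single gene differences above was not tested.

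Mesothelial markers, from the lining of the body cavities, were lower in 8 of 9 cases with a median of -0.62, which was -0.14 without descending 3 and -1.10 without suprarenal 3. KRT8, a keratin of simple epithelia, had 11.7, 16.3, 49.6 and 50.5 CPM in the descending and 19.6, 10.2, 15.8 and 16.8 CPM in the suprarenal libraries, with overlap (log2 difference -1.04, SE 0.44). Of 12 brown fat markers tested 10 were lower (median -0.24, with -0.09 without suprarenal 1, -0.71 without suprarenal 3 and -0.47 with the replicate block), among them KCNK3, an acid-sensitive potassium channel that arterial muscle also expresses, at -0.84 (SE 0.39). Pericyte markers summed to 5635 to 6871 CPM in the descending libraries and to 8441, 6222, 2050 and 7865 CPM in suprarenal libraries 1 to 4, with 8 of 11 members higher and a median of 0.29. Suprarenal 3 had the lowest sum but, at 0.32, the highest mean centred log2 CPM of the suprarenal libraries. Macrophage markers had 15 of 20 higher (median 0.21) and Schwann cell markers 13 of 18 (median 0.22), but 8 of 20 (median -0.03) and 7 of 18 (median -0.22) without suprarenal 3, and neither list had a member under an unadjusted p of 0.05.

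The adrenal gland and the crura of the diaphragm lie against this stretch of the vessel, and their markers were read as well. Of 10 adrenal cortex genes 5 (CYP11B1, HSD3B2, NR5A1, MC2R and NR0B1) had 0 counts in all 8 libraries, and only 2 were tested. The summed level of these 2 was 47.9 to 60.3 CPM in the descending and 49.3 to 59.9 CPM in the suprarenal libraries. Of them 1 was higher and 1 lower in the suprarenal aorta (median 0.61, and 0.12 without suprarenal 3). Their mean centred log2 CPM was -0.43, 0.29, 1.11 and -0.04 in suprarenal libraries 1 to 4, against -0.215 to -0.001 in the descending ones. A part of adrenal tissue in these values was not tested. Skeletal muscle markers summed to 76.4 to 102 CPM in the descending and 72.9 to 130 CPM in the suprarenal libraries, with MYBPC1 and CACNA1S at 0 in all 8. Of the 12 tested 7 were higher (median 0.09), and 4 without suprarenal 3 (median -0.31). MYH1, a fast muscle myosin and the single member under an unadjusted p of 0.05, lay lower, with 0.611, 1.93, 6.43 and 3.49 CPM in the descending and 0.444 to 0.718 CPM in the suprarenal libraries (log2 difference -2.31, SE 0.79).

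**Figure D5:**
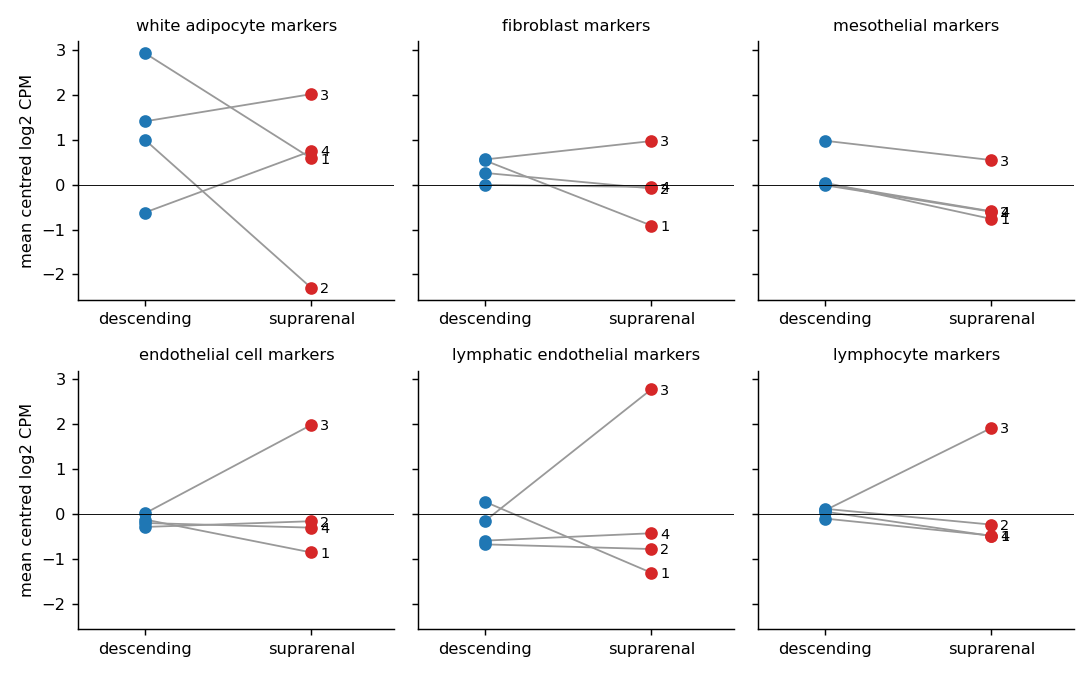
Each panel gives the mean centred log2 CPM of a marker list on the y axis for the 4 descending (blue) and 4 suprarenal (red) libraries, with lines joining libraries of the same number and digits naming the suprarenal ones. Suprarenal 3 is far above the other suprarenal libraries for endothelial, lymphatic and lymphocyte markers, and white fat markers vary within both regions.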

How the data were processed

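Total RNA of aorta was made into NEBNext Ultra libraries after a fibrous tissue extraction kit, per the labels' protocols. The values are whole read counts per gene, deposited by the authors, who used fastp, HISAT2 2.0.5 and featureCounts 1.5.0-p3, per the submitters' processing notes. Neither build, annotation nor strand setting is given in the sources used here. The series table held the same counts as the 16 library files. Overlapping or antisense genes may share reads. The labels name no molecular identifiers, so intervals over counts treat reads as independent. Symbols were read by GeneID from RefSeq's MFA8v1.1 table (names only), which matched 24609 of 32846 table entries, holding 97.2% of counts.

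Genes were kept with filterByExpr (minimum count 10, minimum total 15), leaving 15926, normalized with TMM and fitted with the quasi-likelihood test of edgeR 4.0.16 (R 4.3.3), a mean per region, over all 16 libraries, with Benjamini-Hochberg adjustment. CPM are scaled by TMM factors. Intervals cover 95%. The bound for HOXD10 used a floor of 3 counts over the group. Scores are means of log2 CPM (prior count 2), centred per gene. Libraries of a region differed by more than sampling noise (lowest chi-square per degree of freedom 27.5 descending and 39.5 suprarenal).

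Same-numbered libraries deviated together: the correlations of deviations were 0.26, 0.40, 0.29 and 0.38 for numbers 1 to 4, and -0.34 to 0.14 between different numbers. Deviations within a region cancel out, so positive correlations for the same number push those between different numbers down. The main fit and the permutation test did not use the numbers. The labels do not say what a number marks. Blocking changed no call.

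Members and the 38 gene lists were chosen with earlier results of these data known. Named genes were NOTCH3, ELN and FBN1, up to 15 called genes per direction (none was called), up to 3 members of each list with the smallest unadjusted p (limited to those under 0.05 after the values were seen), every HOX gene tested, and the 5 genes of smallest p for the step contrast above a mean log2 CPM of 1. A gene that this rule names is not reported here. Alternatives used the replicate block, the 8 libraries alone, other normalization and filters, DESeq2 1.42.0, limma 3.58.1 voom, each library left out and the 3 libraries that stand apart left out; 1 was added after seeing the data (without infrarenal 1 and ascending 4).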

Additional observations from a re-analysis of the deposited data

Results flagged for a closer look

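Of 217 groups of 4 libraries (the named genes and the list scores in both regions), 11 had a value far from the other 3 by Dixon's test. Chance alone gives about 1 in 20 groups, so the count itself is near what chance gives. Of these, 6 belonged to suprarenal 3: HOXD10 at 0.571 CPM against 0 in the others, PROX1 at 8.76 CPM against 0.186 to 0.383, and the scores (mean centred log2 CPM) of lymphocyte markers at 1.91 against -0.49 to -0.24, of Schwann cell markers at 1.07 against -0.22 to -0.02, of mesothelial markers at 0.546 against -0.764 to -0.595, and of cholesterol synthesis genes at -0.142 against 0.02 to 0.05.

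The other 5 were descending libraries. COL4A3 was at 63.1 CPM in descending 1, below 82.8 to 86.5 in the rest, and NDUFA4 at 63.4 CPM there, above 51.5 to 52.8. SEMA3C was at 354 CPM in descending 3, above 248 to 260. The score of pericyte markers was 0.593 in descending 1 and that of mesothelial markers 0.977 in descending 3, each with the other 3 libraries between -0.014 and 0.043.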

How the results depend on the processing

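Across the diaphragm 0 genes were called in all 27 settings, and for the step in all 25 that had the 4 regions. DESeq2 and limma voom were a single setting each, and the rest used edgeR. Genes at an unadjusted p under 0.05 across the diaphragm numbered 264, and 158 to 521 when each library was left out (lowest without suprarenal 2, highest without suprarenal 1). They numbered 407 in the 8 libraries alone, 525 there with the replicate block, 516 with no filter, 593 without the 3 libraries that stand apart and 732 without infrarenal 1 and ascending 4. For the step the numbers were 217, 136 to 896 (without descending 1 and infrarenal 1), 331 with the replicate block, 529 with no filter, 1214 and 880. Between the ends 556 genes were called, 345 to 1001 with a library left out, 843 with the replicate block, 1004 by DESeq2, 2099 and 1188.

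The share of genes higher at the infrarenal end that were higher in the suprarenal aorta was 82.9%, with 67.8% to 88.6% over single left-out libraries, 45.3% without the 3 libraries and 72.0% without infrarenal 1 and ascending 4. For genes lower there the values were 85.7%, 70.9% to 89.8%, 66.0% and 78.2%.

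Of 36 gene lists, 28 medians kept within the spread between libraries. That spread is often wide, so such a median could still change its sign. Among these 28, left-out libraries gave -1.54 to 0.16 for white fat markers, -0.04 to 0.32 for Notch and -0.16 to 0.15 for contractile genes. Posterior HOX (0.78 to 1.51) and ribosomal protein genes (0.11 to 0.24) kept their sign. For lists that moved further, the medians over left-out libraries ran from -0.23 to 0.0915 for anterior HOX, -0.23 to 0.11 for WNT, -0.132 to 0.0504 for ion channels, -0.31 to 1.17 for endothelial, -0.62 to 2.22 for lymphatic, -0.31 to 0.23 for skeletal muscle and -0.32 to 0.12 for cardiac markers. Without the 3 libraries they were -0.22 (anterior HOX), -0.13 (ion channels), -0.31 (endothelial), -0.61 (lymphatic), -0.30 (skeletal muscle) and -0.57 (lymphocyte). Ion channels were at -0.0824 with the replicate block and -0.0511 by limma voom, and lymphatic markers at 0.44 by limma voom and 0.30 in the 8 libraries with the replicate block.

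Of 71 named genes with counts in both regions 63 kept their sign in every setting. Apart from the HOX genes, NOTCH3, ELN and FBN1, these genes were named for a small p in the same data. A kept sign was therefore likely from the start for them, and the number is no measure of stability. All exceptions but PROX1 were HOX genes, which were named whatever their p. Over left-out libraries the exceptions ran from -0.149 to 0.132 (HOXA2), -0.0976 to 0.218 (HOXB2), -0.253 to 0.0915 (HOXB3), -0.251 to 0.0015 (HOXB4), -0.232 to 0.586 (HOXB5), -0.307 to 0.0907 (HOXB6), -0.000102 to 0.731 (HOXD1) and -0.365 to 2.93 (PROX1). Without the 3 libraries HOXA2 was at 0.0999, HOXB2 at -0.0891, HOXB5 at -0.223 and PROX1 at -0.354. The cause of these shifts was not tested. Low counts limit HOXD10, HOXA11, ISL1 and CDKN2A.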

Other observations

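Several gene groups of interest in the aortic wall gave little difference across the diaphragm. Of 12 renin-angiotensin genes tested 5 were higher in the suprarenal aorta (median -0.06), and of 36 genes of extracellular proteolysis 16 (median -0.02, with 12 and -0.14 without suprarenal 3). Of 30 immediate-early and stress genes 18 were higher (median 0.05), but 8 without suprarenal 1 (median -0.20). None of the 3 lists had a member with an unadjusted edgeR p under 0.05. Among 28 genes of retinoid and fibroblast growth factor signalling 18 were higher (median 0.08), and 11 without suprarenal 3 (median -0.14). SPRY4, a feedback inhibitor of receptor tyrosine kinase signalling, was higher in all 4 same-numbered pairs, at 20.2, 10.2, 19.9 and 11.1 CPM in the descending and 31.4, 19.4, 32.5 and 14.9 CPM in the suprarenal libraries (log2 difference 0.68, SE 0.29).

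ACAN, the cartilage proteoglycan aggrecan, had 0.672, 0.181, 0.970 and 1.05 CPM in the descending and 4.14, 1.86, 8.06 and 0.591 CPM in the suprarenal libraries, and 19.0 ± 19.9 CPM in the infrarenal aorta (SD, n = 4). Its difference across the diaphragm was 2.33 (SE 1.01) on the log2 scale, with suprarenal 4 inside the descending range.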
